A study of Mus musculus with 2 samples.

Results

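The subject here is 34 genes of Bergmann glia and astrocytes, read out in RNA from laser-captured Purkinje cells. The genes were chosen by symbol from a list and matched to GENCODE identifiers without their version. All 34 were found among the 43346 mouse genes of the files. The study has 1 group with 2 libraries, pool 1 and pool 2, and each library was made from 50 captured Purkinje cells, the large output neurons of the cerebellar cortex. The mice were adult wild-type males of the C57Bl6 strain (B6NCrl in the source label), aged 8 months, with no transgene, treatment or control named. Both pools carry the same donor identifier and different biosample identifiers, so it is not established that they come from separate animals, and differences between them may be technical. The labels link a laser capture procedure for both pools and a Smart-seq protocol for pool 2, while for pool 1 the extraction protocol is marked as not provided.

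Bergmann glia are the specialised astrocytes of the cerebellar cortex. Their cell bodies lie in the Purkinje cell layer, around the Purkinje cell bodies, and their fibres ascend through the molecular layer and ensheathe Purkinje dendrites and synapses. Like other astrocytes they take up glutamate and convert it to glutamine, buffer potassium and water, couple through gap junctions and secrete lipid carriers and matrix proteins. Several of the listed genes are also used by other cells: Apoe and Cst3 by microglia, Vim by vascular cells, Ptprz1 and Bcan by oligodendrocyte precursors, and Clu and Sparcl1 by some neurons.

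Pool 1 held 23830685 expected counts and pool 2 held 27907662. Synthetic ERCC spike-in RNAs took 1.40% and 0.940% of them. All 15 genes of a Purkinje cell marker list were detected, led by Pcp4 with 16756 TPM in pool 1 and 17167 TPM in pool 2. Levels below are TPM as deposited, a transcript abundance that is corrected for transcript length and relative to the whole library. Relative to the spike-ins in place of the library total, the median of all detected genes was lower in pool 1. Its log2 ratio of pool 1 over pool 2 was -0.59, and 32 of the 34 glial genes were lower in pool 1. The exceptions were Hopx (log2 ratio 0.014) and Ptprz1 (0.23). Directions between the pools below are those of TPM, and the scales on which a direction turned are named where a group is said to be higher or lower. A mean is given with its SD over the pools (n = 2). With 1 group no test between conditions could be made, and a ratio between the pools has no replicate check.

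The glial genes were expressed almost throughout. With detection set at 1 TPM or more in each pool, 33 of 34 were detected, against 28.8% of all mouse genes and 51.7% of protein-coding genes. The exception was Slc7a11. A level of 10 TPM or more in each pool was reached by 29 of the 34, against 26.8% of protein-coding genes, and 100 TPM or more by 16, against 5.54%. The median level was 97.2 TPM in pool 1 and 96.6 TPM in pool 2. Summed, the 34 genes took 9089 TPM in pool 1 and 10171 TPM in pool 2, which is 0.934% and 1.03% of the TPM of mouse genes. These shares describe RNA in the captured pools. In bulk RNA, fewer cells of a type and less RNA per cell cannot be told apart.

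**Figure D1:**
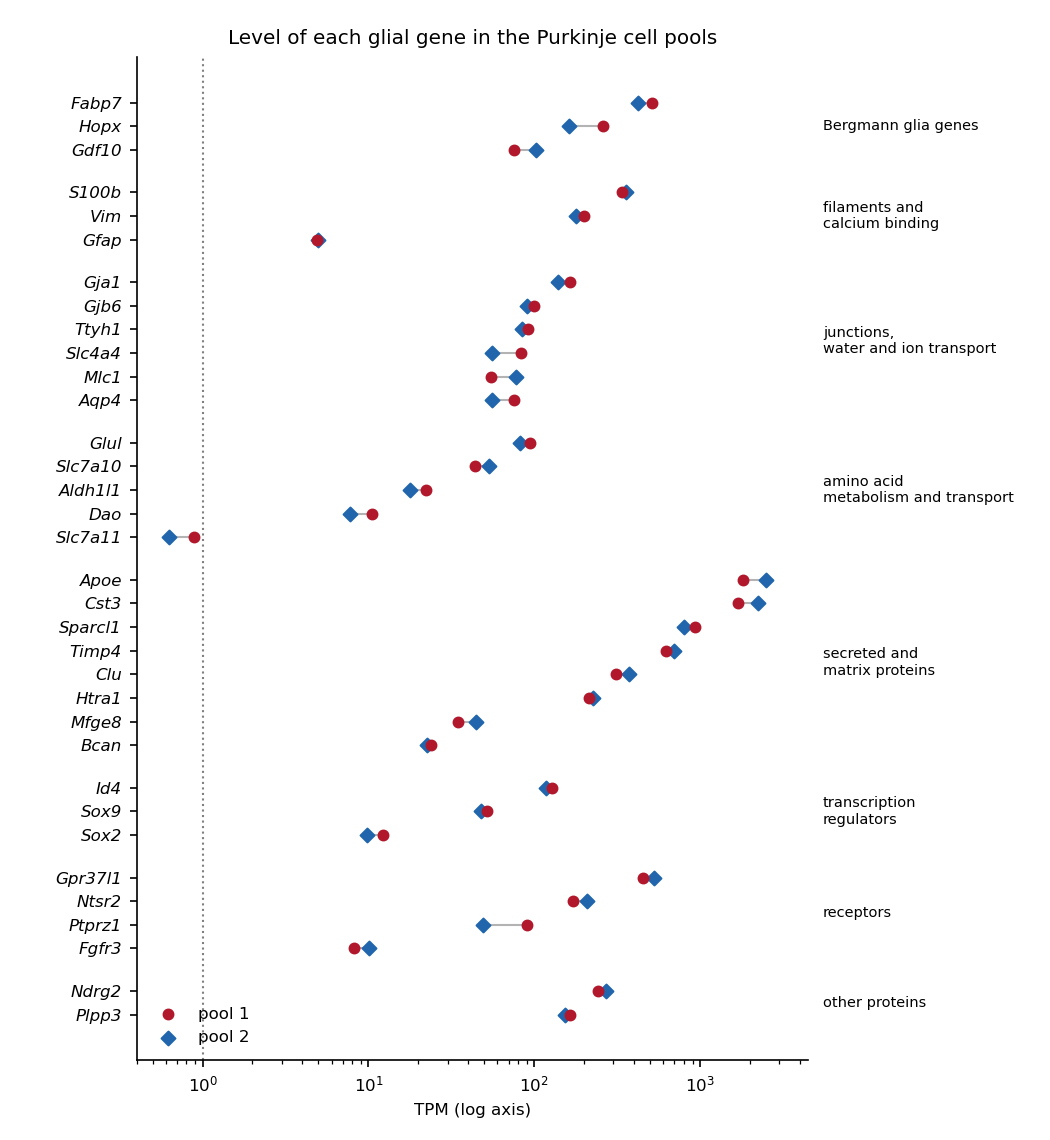
TPM of each of the 34 glial genes on a log axis, grouped by role, with circles for pool 1 and diamonds for pool 2. The dotted line marks a TPM of 1. The pools lie close together for most genes, Apoe and Cst3 are highest, and Slc7a11 alone lies under the line.

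The 3 genes placed first are among those used to mark Bergmann glia in the cerebellar cortex. Fabp7, a brain fatty acid-binding protein of radial glia and Bergmann glia (chromosome 10, 57784881 to 57788450, GRCm38), had 514 TPM in pool 1 and 423 TPM in pool 2. Hopx, a small homeodomain protein of radial glia and astrocytes (chromosome 5, 77086988 to 77115121), had 258 TPM in pool 1 and 162 TPM in pool 2. Gdf10, a secreted factor of the TGF-beta family (chromosome 14, 33923587 to 33937983), had 75.8 TPM in pool 1 and 102.7 TPM in pool 2. The 3 genes did not share a direction: Fabp7 and Hopx were higher in pool 1 and Gdf10 was lower there. Of these directions that of Fabp7 alone turned, on the spike-in scale. On that scale the log2 ratio of Hopx was 0.014, so its direction was all but lost.

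The genes of the glial cytoskeleton and calcium binding spanned a wide range. S100b, a calcium-binding protein of astrocytes, had 337 TPM in pool 1 and 356 TPM in pool 2, and Vim, an intermediate filament protein, had 200.3 TPM and 178 TPM. Vim was higher in pool 1 except on the spike-in scale. Gfap, the filament protein that is the classical astrocyte marker (chromosome 11, 102887336 to 102900912), was low at 4.90 TPM in pool 1 and 4.97 TPM in pool 2. It rested on 246 and 317 expected counts, which give 95% Poisson counting intervals of 4.31 to 5.55 TPM and 4.44 to 5.55 TPM. Both intervals lay far below the level of S100b, so within 1 functional group the levels of astrocyte genes were very unequal.

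The 6 genes of junctions, water and ion transport lay in a narrow band. Gja1, the gap junction protein connexin 43 in common naming, had 165 TPM in pool 1 and 138 TPM in pool 2. Gjb6, a connexin that pairs with it in astrocytes, had 99.7 TPM and 90.5 TPM. The bicarbonate transporter Slc4a4 had 83.7 TPM in pool 1 and 55.8 TPM in pool 2, and the water channel Aqp4 had 75.3 TPM and 55.9 TPM. Ttyh1, a membrane protein of the tweety family, had 91.1 TPM and 84.6 TPM. These 5 were higher in pool 1, but all 5 were lower on the spike-in scale, Gjb6 was also lower on count scales (TMM and DESeq2 size factors) and Ttyh1 after the adjustment for length and level described below. By contrast Mlc1, a membrane protein of astrocyte endfeet (chromosome 15, 88955884 to 88979007), was lower in pool 1 on every scale, with 54.6 TPM in pool 1 and 77.7 TPM in pool 2.

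Among the genes of amino acid metabolism and transport, Glul, which makes glutamine from glutamate, led with 94.7 TPM in pool 1 and 82.2 TPM in pool 2. Slc7a10, a transporter of small neutral amino acids such as serine and glycine, had 44.0 TPM and 53.5 TPM. Aldh1l1, a folate enzyme widely used to mark astrocytes, had 22.2 TPM and 17.9 TPM, and Dao, the oxidase of D-amino acids, had 10.5 TPM and 7.77 TPM. Slc7a11, the cystine and glutamate exchanger (chromosome 3, 49892526 to 50443614), was the lowest of all 34 genes. On TPM, Glul, Aldh1l1, Dao and Slc7a11 were higher in pool 1, all 4 except on the spike-in scale, and Slc7a10 was lower on every scale. The deposited intervals, described below, overlapped between the pools for Glul, Aldh1l1, Slc7a11 and Slc7a10. Slc7a11 had 0.890 TPM in pool 1, with a counting interval of 0.732 to 1.07 TPM from 111 expected counts, and 0.630 TPM in pool 2, with an interval of 0.520 to 0.756 TPM from 115. The interval of pool 1 includes the detection threshold of 1 TPM and that of pool 2 does not.

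Genes of secreted and matrix proteins held most of the summed TPM of the listed glial genes, in both pools. This group of 8 took 5639 TPM in pool 1 and 6885 TPM in pool 2. Apoe, the lipid carrier (chromosome 7, 19696109 to 19699188), had 1825 TPM in pool 1 and 2492 TPM in pool 2, and Cst3, a secreted cysteine protease inhibitor, had 1680 TPM and 2232 TPM. Among protein-coding genes Apoe ranked 46 in pool 1 and 29 in pool 2. Sparcl1, a secreted matrix glycoprotein that acts at synapses, had 925 TPM in pool 1 and 805 TPM in pool 2. Timp4, an inhibitor of metalloproteinases, had 626 TPM and 692 TPM. The chaperone clusterin, Clu, had 311 TPM in pool 1 and 371 TPM in pool 2, and the serine protease Htra1 had 213 TPM and 225 TPM. Mfge8, a bridging protein in the clearance of dying cells, had 34.6 TPM and 44.5 TPM, and Bcan, the proteoglycan brevican, had 23.8 TPM and 22.6 TPM. In this group 6 of 8 genes were lower in pool 1 on every scale, while Sparcl1 and Bcan were higher, Sparcl1 except on the spike-in scale and Bcan except on the spike-in, TMM and adjusted scales.

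The 3 transcription regulators were slightly higher in pool 1, except that all 3 were lower on the spike-in scale and Sox9 was lower after adjustment. Id4, an inhibitor of basic helix-loop-helix factors, had 128 TPM in pool 1 and 117 TPM in pool 2. Sox9, a factor needed for the astrocyte fate, had 51.6 TPM and 47.5 TPM, and Sox2, a factor of neural stem cells and glia, had 12.3 TPM and 9.81 TPM.

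Among the receptors, Gpr37l1, an orphan receptor of astrocytes and Bergmann glia, was highest with 450 TPM in pool 1 and 527 TPM in pool 2. Ntsr2, a neurotensin receptor, had 171 TPM and 209 TPM, and the growth factor receptor Fgfr3 had 8.23 TPM and 10.03 TPM. These 3 were lower in pool 1 on every scale. Ptprz1, a receptor-type tyrosine phosphatase (chromosome 6, 22875502 to 23052916), stood apart and was higher in pool 1 on every scale, with 90.9 TPM in pool 1 and 48.8 TPM in pool 2. The remaining genes of the list were close between the pools: Ndrg2, an NDRG family protein of astrocytes, had 243 TPM and 271 TPM, and Plpp3, a lipid phosphate phosphatase, had 164 TPM and 154 TPM. Ndrg2 was lower in pool 1 on every scale, and Plpp3 was higher there except on the spike-in, TMM and adjusted scales.

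Set beside the marker lists of other cells, the glial list lay below the Purkinje cell list and above every list of other solid-tissue cells measured. The difference between list medians of log2(TPM + 1) was -2.45 ± 0.27 (SD, n = 2 pools) against the Purkinje cell list, from -2.65 in pool 1 and -2.26 in pool 2. The Purkinje cell list had a median of 613 TPM in pool 1 and 466 TPM in pool 2, and 4 glial genes exceeded that median in both pools. The glial median was higher by 2.74 ± 0.20 than that of the granule cell list, by 3.77 ± 0.12 than that of oligodendrocytes, by 3.74 ± 0.23 than that of molecular layer interneurons, by 4.41 ± 0.22 than that of microglia and by 5.00 ± 0.15 than that of endothelial cells and pericytes. Each of these differences exceeded its spread between the pools. The glial median was also higher, by 2.22 ± 0.18, than that of a second list of 40 other astrocyte genes, described below. The size of these differences therefore depended on which genes were listed. No level of any list in its own purified cells was used, so the differences do not give shares of cells.

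Set against the highest gene of each list, the glial genes gave another order of lists than the medians did. The highest granule cell gene, Gabra6, a GABA-A receptor subunit, had 38.5 TPM in pool 1 and 51.2 TPM in pool 2, and 24 of the 34 glial genes exceeded it in both pools. The highest oligodendrocyte gene, Cnp, a myelin enzyme, had 98.8 TPM and 107 TPM and was exceeded by 16 glial genes, and it lay slightly above the glial median. The highest of the endothelial list, Ly6c1, had 62.7 TPM and 89.9 TPM and was exceeded by 18. Of the oligodendrocyte precursor list Olig1 alone was detected, at 2.20 TPM in pool 1 and 3.27 TPM in pool 2, and none of the 6 choroid plexus and ependyma genes was. Blood genes had a median of 114 TPM in pool 1 and 400 TPM in pool 2, so the difference of the glial list from the blood list, -1.14 ± 1.28, was within the spread of the pools.

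**Figure D2:**
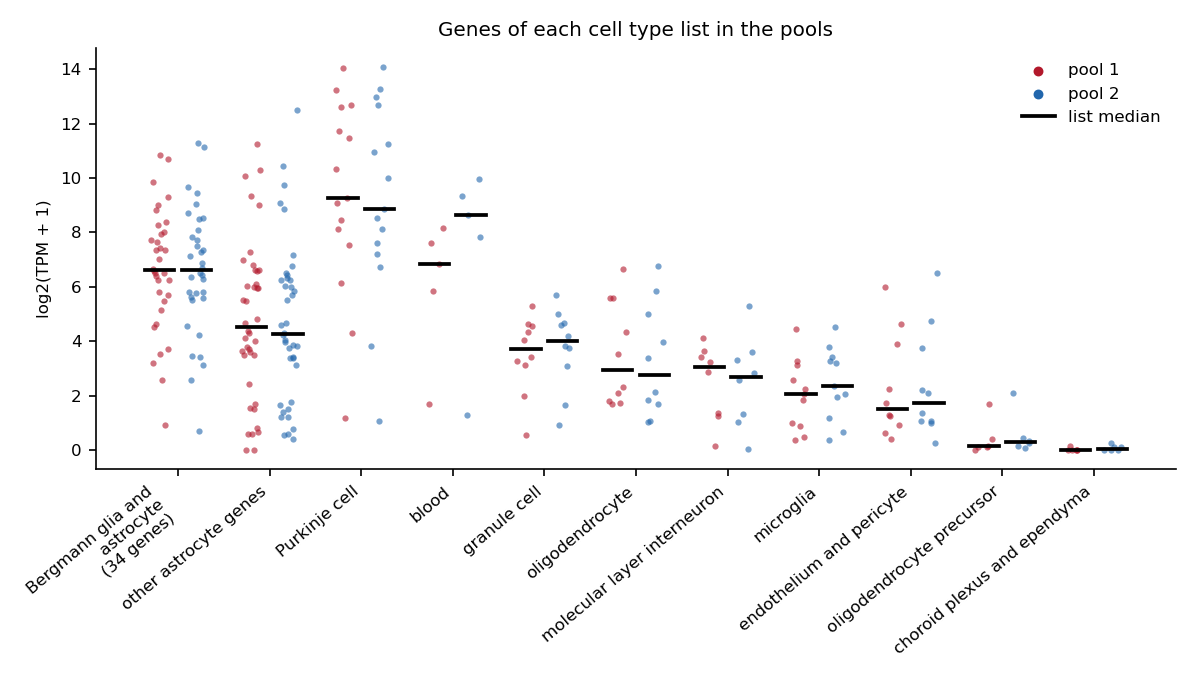
log2(TPM + 1) of every gene of each cell type list, one point per gene, with pool 1 left and pool 2 right in each pair and a black bar at the list median. The 34 glial genes have medians near 6.6 in both pools, below the Purkinje cell and blood lists and above the other cell type lists drawn. The blood list is the one whose median differs most between the pools.

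A further 40 genes with roles in astrocytes, none of them among the 34, were examined. Of these, 34 were detected, and their median was 22.1 TPM in pool 1 and 18.1 TPM in pool 2. The highest were the glycolytic enzyme Aldoc (2409 TPM in pool 1, 5861 TPM in pool 2), the metallothionein Mt2 (1253 and 1377 TPM) and the glutamate transporter Slc1a3 (1083 and 852 TPM). They were followed by the metallothionein Mt3 (639 and 535 TPM), the lipase Pla2g7 (515 and 470 TPM) and the claudin Cldn10 (156 and 142 TPM). Aldoc is also the zebrin antigen of a subset of Purkinje cells. The lowest were the Notch target Hes5 (0 and 10 expected counts), the GABA transporter Slc6a11 (0.50 and 0.46 TPM) and Gli1, a target of Sonic hedgehog (0.520 and 0.690 TPM). A count of 0 allows up to 3 counts. Of the 34 detected ones 4 were 1.5-fold or more higher in pool 1 on log2(TPM + 1), against 6.19% of all detected genes, and 1 was lower by that much, against 3.15%. The 4 were Gria4, Gria1, Hepacam and Tnc, and the 1 was Aldoc, all but Aldoc named after their values were seen. Gria1 lay just past the threshold, at a log2 ratio of 0.586, and was lower in pool 1 on the spike-in scale. After the adjustment for length and level described below, Hepacam (0.65) stayed past 1.5-fold. Gria4 (0.50), Tnc (0.43) and Gria1 (0.32) did not, and Aldoc (-1.26) stayed lower by that much. Of the 6 not detected in both pools, Wif1 (0 and 57 expected counts) and Gpc5 (31 and 111) were also lower in pool 1 by that measure. Gria4 and Gria1, AMPA receptor subunits found in Bergmann glia, had 125 and 94.1 TPM in pool 1 and 75.4 and 62.3 TPM in pool 2. Which cells of the pools these levels came from was not tested.

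Between the pools the 34 genes kept their order of level. Across the genes, Spearman's rho of their TPM in pool 1 and pool 2 was 0.983 (n = 34), a description over genes that share 2 libraries. The median log2 ratio of pool 1 over pool 2, on log2(TPM + 1), was 0.10, near the 0.07 of all 12495 detected genes. Of the 33 detected glial genes 18 were higher in pool 1, and 58.7% of all detected genes were. At a mean TPM of 100 or more the SD of the ratio was 0.29 over 16 glial genes and 0.28 over 1350 genes of that level, and at 10 to 100 TPM it was 0.40 over 14 glial genes and 0.35 over all genes of that level.

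The genes that differed by 1.5-fold or more were few. The call was made on log2(TPM + 1). Ptprz1 was higher in pool 1 with a log2 ratio of 0.88 and a ratio of TPM itself of 1.86, and Hopx with a log2 ratio of 0.67 and a ratio of TPM of 1.59, and none of the 33 was lower in pool 1 by that much. These are 2 genes higher, against 6.19% of detected genes, and 0 lower, against 3.15%. A share of 6.06% higher is near the background. Slc4a4 lay at the threshold: its log2 ratio of 0.58 fell just short, and its ratio of TPM without the added 1 was 1.5001, just past it. On TMM-scaled counts the 2 genes past 1.5-fold were Ptprz1, higher in pool 1, and Mlc1, lower, and the share of all detected genes was not computed on that scale. In the other direction Mlc1 (-0.50), Apoe (-0.45), Gdf10 (-0.43) and Cst3 (-0.41) had the lowest log2 ratios, all inside 1.5-fold. No glial gene reached 2-fold, which 1.45% of detected genes did.

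The 2 highest genes set the direction of the sum. On TPM, with Apoe and Cst3, the 34 genes summed to fewer TPM in pool 1 than in pool 2, a log2 ratio of -0.16. Without them the other 32 genes summed to 5584 TPM in pool 1 and 5446 TPM in pool 2, a log2 ratio of 0.04. Apoe and Cst3 together took 38.6% of the summed TPM of the 34 genes in pool 1 and 46.5% in pool 2. Microglia also express Apoe and Cst3, and the genes of the microglial list summed lower in pool 1, with 54.5 TPM against 74.0 TPM in pool 2, and 9 of 11 had a ratio below 0. The complement gene C1qb of that list had 8.66 TPM in pool 1 and 12.8 TPM in pool 2. None of the 11 was at 0 in both pools, 8 were detected, and Cx3cr1, Csf1r and Tmem119 were not. Their part in the levels of Apoe and Cst3 was not tested. The genes of endothelial cells and pericytes, of which vascular cells share Vim with glia, summed to 111 TPM in pool 1 and 139.6 TPM in pool 2, with 7 of 10 detected, 4 higher and 6 lower in pool 1 and none at 0 in both pools, and their part in the level of Vim was not tested. Oligodendrocyte precursor genes summed to 2.82 TPM in pool 1 and 4.26 TPM in pool 2, of which Olig1 made up the most and was the 1 gene detected of 6. Pdgfra, a receptor that marks these cells, had 0.33 TPM in pool 1 and 0.26 TPM in pool 2. It was the 1 gene of this list that was higher in pool 1, and the other 5 were lower. None of the 6 was at 0 in both pools, and their part in the level of Ptprz1 was not tested. Blood genes summed to 651 TPM in pool 1 and 2274 TPM in pool 2, and what part this had in the other levels was not tested.

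The ratio between the pools also ran with transcript length. Genes averaging 10 TPM or more were split into length classes. Their median log2 ratio stood at -0.13 below 1000 nt (1168 genes) and at -0.02 between 1000 and 2000 nt (2351 genes). It stood at 0.17 between 2000 and 4000 nt (2219 genes) and at 0.36 from 4000 nt upward (715 genes). The glial genes at that level had medians of -0.07 (2 genes), -0.08 (12 genes), 0.08 (12 genes) and 0.50 (4 genes) in the same classes. Of the 6 glial genes of 4000 nt or more 5 were higher in pool 1 on TPM, namely Ptprz1, Slc4a4, Aqp4, Sox9 and Slc7a11, of which all but Ptprz1 were lower on the spike-in scale and Sox9 was lower after adjustment. The exception was Fgfr3, at -0.26. Across the 34 genes Spearman's rho of the ratio with length was 0.33, and it was 0.51 over the 6453 genes averaging 10 TPM or more. The genes of each set share the same 2 libraries.

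**Figure D3:**
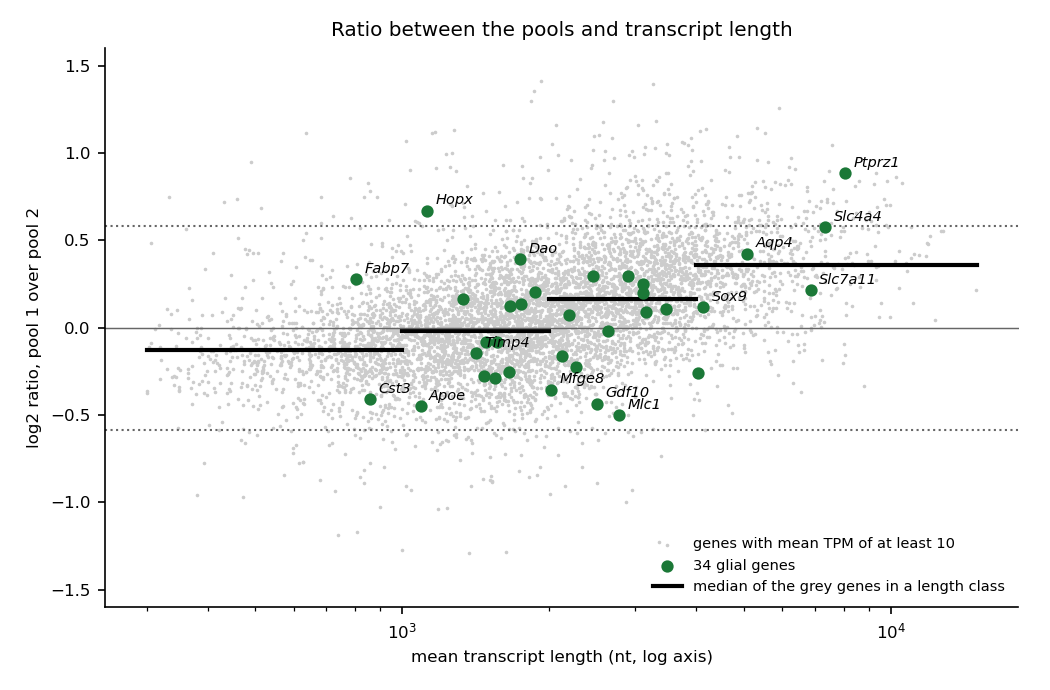
log2 ratio of pool 1 over pool 2 against mean transcript length on a log axis, with green points for the 34 glial genes and grey points for genes averaging 10 TPM or more. Black bars are medians of the grey genes by length class, dotted lines mark 1.5-fold, and 54 genes fall outside the axes. Ptprz1 and Hopx lie above the upper line, and the longest glial genes lie at or above 0 except Fgfr3.

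After adjustment of the ratios for length and level, some of the ratios shrank and others did not. Ptprz1 moved to a log2 ratio of 0.57, Slc4a4 to 0.27 and Aqp4 to 0.17. After adjustment Hopx had a log2 ratio of 0.71, Fabp7 of 0.36 and Dao of 0.37, each within 0.1 of its ratio on TPM. On the low side Mlc1 moved to -0.65, Gdf10 to -0.55, Fgfr3 to -0.46 and Mfge8 to -0.42. With this adjustment Hopx was 1.5-fold or more higher in pool 1 and Mlc1 1.5-fold or more lower, which is 1 of 33 in each direction, against 3.85% and 3.29% of detected genes. The adjusted median was -0.08, and 14 of 33 detected glial genes lay above 0, against 49.9% of detected genes. In the adjusted order Hopx was highest and Gdf10 next to lowest, so these Bergmann glia genes lay near opposite ends.

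**Figure D4:**
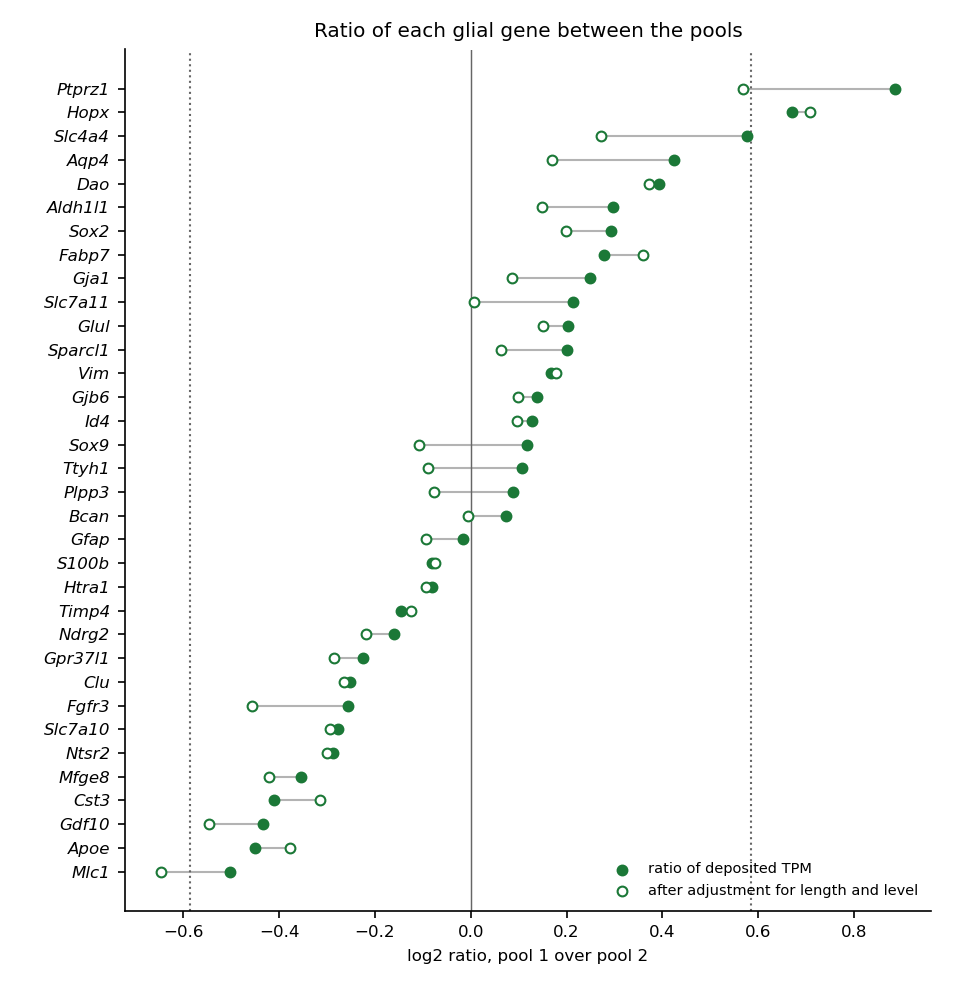
log2 ratio of pool 1 over pool 2 for each of the 34 glial genes, with filled circles for deposited TPM and open circles after adjustment for transcript length and level. Dotted lines mark 1.5-fold. Adjustment brings Ptprz1 inside the upper line and moves Mlc1 past the lower line, and Hopx stays past the upper line.

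The authors also deposited a posterior mean TPM and an interval for each gene, whose level is not stated. The intervals cover the estimation from the reads of 1 library and not the capture of cells. They did not overlap between the pools for 26 of the 33 detected glial genes, 14 with pool 1 above, against 26.3% of detected genes, and 12 with pool 2 above, against 13.3%. With the intervals widened by the median ratio of all detected genes, 15 glial genes were left, 7 with pool 1 above and 8 with pool 2 above. The share of all detected genes left after widening was not computed, so these 15 have no background to be read against. As deposited, either way, the intervals did not overlap for 78.8% of the glial genes and 39.6% of detected genes. For genes averaging 10 TPM or more that share was 80.0% of 30 glial genes and 52.7% of 6453 genes. The share over all genes was thus higher at this level, and the glial share remained above it. Genes matched more closely in level were not compared, and the cause of the difference was not tested. The interval of Gdf10 was 71.3 to 76.1 TPM in pool 1 and 98.05 to 103.03 TPM in pool 2. That of Gfap was 4.33 to 6.08 TPM in pool 1 and 4.45 to 5.77 TPM in pool 2, which overlap. The intervals also overlapped for Htra1, Gjb6, Glul, Slc7a10, Bcan, Aldh1l1 and Slc7a11. The directions given above for these genes are therefore not set apart by the intervals.

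The transcript estimates bore on how the gene levels were made up. Of the 34 genes 13 had a single annotated transcript, among them Gdf10, Gja1, Gpr37l1, Ptprz1, Sox2 and Timp4. Of 17 genes with several transcripts and 10 TPM or more in each pool, 16 had the same leading transcript in both pools by TPM, and 91.5% of 4584 such genes did. By expected counts all 17 did, against 93.7%. The exception was Htra1, in which a processed transcript of 1606 nt took 41.7% of the gene in pool 1 and 38.9% in pool 2 and the coding transcript of 2041 nt took 37.8% and 40.3%. By expected counts the coding transcript led Htra1 in both pools, with 50.2% and 53.2%.

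For 3 genes the leader by TPM was not the leader by expected counts, both taken as the mean share over the pools. In Vim a transcript of 535 nt with a retained intron accounted for 51.6% of the gene by TPM in pool 1 and for 49.9% in pool 2, but 18.4% and 17.4% of its expected counts. The main coding transcript of Vim took 43.6% and 45.7% of the TPM and 74.9% and 76.5% of the counts. In Bcan a retained-intron transcript of 1473 nt accounted by TPM for 54.3% in pool 1 and 56.7% in pool 2, and by counts for 35.4% and 37.4%. The third gene was Htra1, in which the leaders differed in pool 1 and in the mean but not in pool 2. In Gjb6 a transcript of 201 nt made up 18.8% by TPM in pool 1 and 14.4% in pool 2, from 1.18% and 0.874% of the counts. The 201-nt transcript of Gjb6 rested on 37.8 and 33.5 expected counts. The retained-intron transcripts of Vim and Bcan rested on more, with 894 and 976 counts for Vim and 352 and 442 for Bcan. By counts the leading transcript was protein-coding in 34 of 34 genes, and by TPM in 31, on the mean share over the pools. Among the lowest genes the make-up differed more between the pools: the 1824-nt transcript of Dao held 98.5% of the gene in pool 1 and 68.6% in pool 2, the 4020-nt transcript of Fgfr3 74.4% and 92.99%, and the 2648-nt transcript of Gfap 60.5% and 74.0%. These shares have no replicate within a pool.

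**Figure D5:**
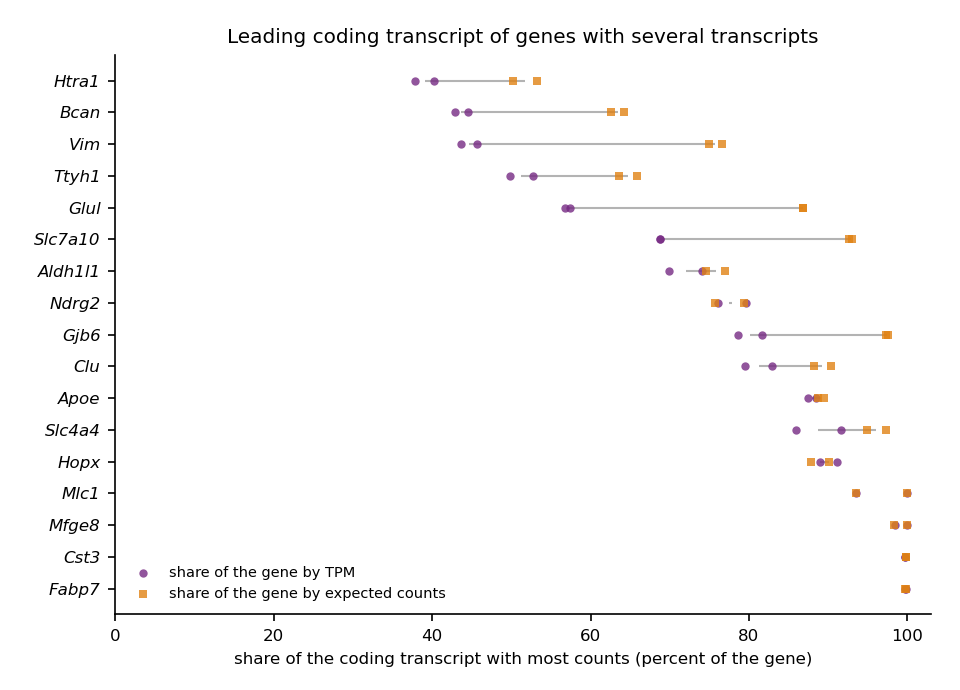
Share of the coding transcript with most expected counts in the gene, in percent, for the 17 glial genes with several transcripts and 10 TPM or more in each pool. Circles are shares by TPM and squares shares by expected counts, with a point for each pool. The shares by counts exceed those by TPM most in Vim, Glul and Slc7a10.

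Some levels are less certain for reasons of counting. The expected counts of 7 genes were fractional, as when reads are divided between genes: Sparcl1, Hopx, Id4, Glul, Ttyh1, Slc7a10 and Slc7a11. Exons of 8 genes overlap those of another annotated gene, and no source used here states whether counting used the strand. The antisense gene Hopxos, opposite Hopx, had 5.10 TPM in pool 1 and 6.96 TPM in pool 2, well below Hopx and in the other direction. Syn2, opposite Timp4, had 29.2 TPM in pool 1 and 30.6 TPM in pool 2, and Lrp3, opposite Slc7a10, had 10.4 TPM and 9.14 TPM. Glul, Ttyh1, Id4, Aldh1l1 and Fgfr3 also overlap another gene. The 34 genes lie on 14 chromosomes, with at most 5 on 1 chromosome.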

How the data were processed

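RNA over 200 nt from 2 pools of 50 Purkinje cells was sequenced with spike-ins, per the labels. Per the notes deposited with the files, alignments to the mm10 transcriptome were quantified for genes and transcripts using the GENCODE M4 annotation. Not given in the sources used here were the aligner, the quantifier, their versions and the strand setting. Expected counts, as deposited, are estimates of reads without normalization. The deposited TPM values have the same total in each library, spike-ins included. Isoform shares are the deposited percent values of the authors. The authors' deposited interval bounds, treated as a score, surround the posterior mean TPM rather than the TPM itself.

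Symbols and coordinates came from GENCODE release M21 (GRCm38), which named 42462 of 43346 mouse genes. Entries with numeric identifiers (26248) were left out. Detection required 1 TPM or more in each pool. Ratios are pool 1 over pool 2 on log2(TPM + 1), which understates ratios of low genes, and a call was 1.5-fold. The adjustment subtracted lowess trends (span 30%) on log length, then on level, over genes with a mean TPM of at least 0.5. It was tested on simulated data for genes averaging 10 TPM or more, with a trend on length and none on level. The level step and lower genes were therefore not tested. Counts were rounded for edgeR 4.0.16 (TMM) and DESeq2 1.42.0 size factors in R 4.3.3, used as scales only, with no test. Other software was matplotlib 3.10.9, statsmodels 0.14.6, scipy 1.17.1, numpy 2.4.6 and pandas 2.3.3 under Python 3.11.15. Poisson intervals are exact, at 95%, and like the limit of 3 counts cover counting error alone: reads that carry no molecular identifier need not be independent molecules.

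The genes, the marker lists and the grouping by role were chosen with earlier results of these data known. Named genes are all 34 members, the 6 highest and 3 lowest of the 40 other astrocyte genes, and some of the 3 highest of each other list. Genes named as not detected, as overlapping, or among counts of 5 or fewer were named after their values were seen. Alternatives were other thresholds, pseudocounts and scales and each pool alone.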

Additional observations from a re-analysis of the deposited data

How the results depend on the processing

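No paired analysis was possible because the labels give 1 group, so no groups share replicate numbers. The median log2 ratio of the glial genes, 0.10 on TPM, was -0.00142 on TMM-scaled counts, 0.00272 with DESeq2 size factors, -0.56 on the spike-in scale and -0.077 after adjustment for length and level. The spike-in scale moved the median of all detected genes to -0.59, and relative to that median the glial genes lay 0.03 higher. This scale shifts every log2 ratio by the same amount, so that difference equals the one on TPM by construction. Of 34 single ratios 17 changed sign on the spike-in scale, 4 with the adjustment, 3 with TMM, 1 with DESeq2 size factors and 0 with a pseudocount of 0.1. The 2 genes past 1.5-fold became 0 at 2-fold and 15 on the spike-in scale, all lower in pool 1. On the spike-in scale the median of all detected genes, -0.59, itself lay at the 1.5-fold threshold, so the 15 are not particular to the glial genes. The glial genes past 1.5-fold were 2 on TMM-scaled counts and 2 with the adjustment, each time 1 higher and 1 lower. With DESeq2 size factors they were 3, 2 higher and 1 lower. The share of all detected genes past 1.5-fold was not computed on the spike-in, TMM and DESeq2 scales. The difference from the Purkinje cell list, -2.45, was -2.88 on counts scaled by library size, which are not corrected for length, and -1.95 without the 3 highest Purkinje cell genes. The share of 0.984% of TPM was 1.33% by expected counts and 0.764% without Apoe. The 26 genes with non-overlapping deposited intervals became 15 (7 with pool 1 above, 8 with pool 2 above) when the intervals were widened by the median ratio of all genes. The share of all detected genes after that widening was not computed. Detection stayed at 32 to 34 genes under the settings tried. Each pool alone gave differences from the Purkinje cell list of -2.65 and -2.26 and shares of 0.934% and 1.03%. Depth limits Slc7a11 most among the 34, at 111 to 115 expected counts. The causes of these shifts were not tested.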
